A study of Homo sapiens with 9 samples.

Results

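The E proteins TCF3, TCF4 and TCF12 and their inhibitors ID1, ID2 and ID3 were followed through 4 lists of accessible chromatin from Jurkat cells, an established line grown from a human T cell leukaemia. A region was assigned to 1 of these 6 genes when it overlapped the gene body or lay within 200 kb of the transcription start site (TSS). Of 40703 regions obtained by merging the 4 lists on the autosomes, X and Y, 111 were assigned in this way, 52 to the E protein genes and 59 to the ID genes. *TCF12* had 31 regions, *ID3* had 24, *ID1* had 23, *TCF3* had 15, *ID2* had 12 and *TCF4* had 6.

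Formaldehyde-assisted isolation of regulatory elements (FAIRE) recovers DNA that is not wrapped in nucleosomes, and its sequencing shows where chromatin is open. Each of the 4 libraries with a peak list is a single sample. The labels assign the lists to non-stimulated cells (NS) and stimulus-withdrawn cells (SW), each pre-treated with DMSO or with 15 μM of the kinase inhibitor rottlerin for 1 h. SW cells had received PMA and ionomycin, for 4 h by the labels and for a shorter time by the study's methods, and were then rested without stimulus for 1 day. All lists were called against the same total input library, so they share a control. The study's methods describe peak calling on the DMSO-treated states alone, among them stimulated and re-stimulated cells, so labels and methods differ on which cells the lists other than NS DMSO represent. The merge over all chromosomes yielded 40731 regions, with 28 of them outside the autosomes, X and Y. These counts equal those in the study's text for its DMSO-treated states together, which goes against the rottlerin labels, but which list belongs to which of those states follows from neither source. Each list is therefore named by its label only, and nothing is read from these data about rottlerin or about stimulus withdrawal as such. The libraries of the other 5 samples were not analysed here. The lists held 18977 (NS DMSO), 20132 (SW DMSO), 23835 (NS rottlerin) and 30409 peaks (SW rottlerin). A peak list does not give the depth of its library, which is unknown here, and the absence of a peak means only that none was called. With 1 library a label there is no spread between replicates to set a difference against, and every comparison here is a description without a test. The authors' fold enrichment over total input is given for each peak, and it is a measure of open chromatin at that place and not of the RNA of the gene.

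E proteins are basic helix-loop-helix (bHLH) transcription factors. They bind E-boxes, short sites of the form CANNTG, as dimers with one another or with tissue-restricted bHLH partners, and they direct the early development of T and B cells. ID proteins have the helix-loop-helix but lack the basic region that touches DNA, so an E protein held by an ID protein does not bind. T cell receptor signalling is known to raise ID3, and the balance between the families shapes thymocyte selection and effector and memory differentiation of T cells.

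The sequences of 7 of the regions are given first as examples, read from GRCh37 on the plus strand, as the whole region or its central 300 bp. Capitals mark matches, on either strand, to 3 E-boxes (CACCTG, which ZEB1 and ZEB2 also bind, CAGCTG and CATCTG) or to TGANTCA. With N as any base, TGANTCA covers both forms of the AP1 consensus, TGACTCA and TGAGTCA. It also takes in TGAATCA and TGATTCA, which are not that consensus. The region that contains the stretch of 110 bp amplified by the study near *ID2* (chr2:8655761-8655870) holds none of the 4 motifs.
ID2, 163 kb upstream (chr2:8655625-8655902): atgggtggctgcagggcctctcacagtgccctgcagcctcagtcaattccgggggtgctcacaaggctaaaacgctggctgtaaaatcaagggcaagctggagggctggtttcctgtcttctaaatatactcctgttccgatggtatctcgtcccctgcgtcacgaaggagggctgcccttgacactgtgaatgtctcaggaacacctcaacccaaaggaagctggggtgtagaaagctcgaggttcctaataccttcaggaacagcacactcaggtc
Regions with a peak in every list but NS DMSO included those 134 kb before *ID2*, at the *ID2* TSS (only the 76 bases before the TSS are printed), 11.8 kb before *ID1* and 10.9 kb inside *TCF12*. Others at *ID1* are described below and are not printed.
ID2, 134 kb upstream (chr2:8685188-8685487): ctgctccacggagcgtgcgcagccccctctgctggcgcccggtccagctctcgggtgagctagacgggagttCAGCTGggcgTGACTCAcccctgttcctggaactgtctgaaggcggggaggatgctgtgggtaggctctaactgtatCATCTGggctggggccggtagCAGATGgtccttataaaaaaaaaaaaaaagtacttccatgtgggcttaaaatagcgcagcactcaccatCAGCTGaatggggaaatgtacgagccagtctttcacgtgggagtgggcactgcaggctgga
ID2, to the TSS (chr2:8818899-8818974): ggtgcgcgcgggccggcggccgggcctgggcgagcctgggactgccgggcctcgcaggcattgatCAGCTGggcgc
ID1, 11.8 kb upstream (chr20:30181111-30181366): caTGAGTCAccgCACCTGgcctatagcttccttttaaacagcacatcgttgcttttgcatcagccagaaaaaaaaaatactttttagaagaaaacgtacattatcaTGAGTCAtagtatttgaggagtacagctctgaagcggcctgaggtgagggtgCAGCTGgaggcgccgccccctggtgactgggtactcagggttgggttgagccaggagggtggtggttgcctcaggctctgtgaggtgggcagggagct
TCF12, 10.9 kb downstream of the TSS (chr15:57221522-57221821): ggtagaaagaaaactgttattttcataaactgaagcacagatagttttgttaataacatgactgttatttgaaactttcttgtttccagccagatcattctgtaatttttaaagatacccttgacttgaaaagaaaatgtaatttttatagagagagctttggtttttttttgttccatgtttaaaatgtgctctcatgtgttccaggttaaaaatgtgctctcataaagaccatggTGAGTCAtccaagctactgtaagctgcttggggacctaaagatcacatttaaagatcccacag
Regions with a peak in the NS DMSO list alone included 1 that lay 52.7 kb before *ID3* and 1 that lay 3.42 kb after the *ID1* TSS.
ID3, 52.7 kb upstream (chr1:23938516-23938770): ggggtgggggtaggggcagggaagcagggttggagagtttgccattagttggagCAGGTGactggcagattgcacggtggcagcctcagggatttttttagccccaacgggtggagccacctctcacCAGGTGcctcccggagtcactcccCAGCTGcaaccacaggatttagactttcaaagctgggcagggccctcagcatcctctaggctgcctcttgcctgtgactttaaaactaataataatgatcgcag
ID1, 3.42 kb downstream of the TSS (chr20:30196397-30196618): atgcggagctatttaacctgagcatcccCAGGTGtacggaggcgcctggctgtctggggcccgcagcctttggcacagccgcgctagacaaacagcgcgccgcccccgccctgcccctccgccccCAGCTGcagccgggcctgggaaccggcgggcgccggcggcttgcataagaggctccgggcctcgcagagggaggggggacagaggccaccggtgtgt
The *ID2* region 134 kb upstream carried 5 motif matches in its central 300 bp, namely 2 CAGCTG, 2 CATCTG and 1 TGANTCA. The *ID1* region 11.8 kb upstream carried 4, of which 2 were TGANTCA. Both of the NS DMSO regions carried CACCTG and CAGCTG. Those 2, and the *ID1* region 11.8 kb upstream, were picked for print by their number of motifs, so the sequences shown are no measure of how the motifs differ between the lists, and the shares over all such regions are given below.

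Around the 6 genes, peaks were absent from the NS DMSO list in 55 of 111 regions (49.5%), against 53.5% of all merged regions. Peaks in all 4 lists were found in 29 regions (26.1%), against 26.6% of all. Peaks in every list but NS DMSO were found in 7 (6.31%), against 7.08%, and in NS DMSO alone in 11 (9.91%), against 7.83%. As a group, the regions of the 6 genes were thus spread over the lists much like all regions when every peak was kept. Of these regions, 19 lay within 1 kb of the TSS of another coding gene. Without them, 18 of 92 were in all 4 lists (19.6%), 11 in NS DMSO alone (12%) and 49 had no NS DMSO peak (53.3%). The shares of all regions were not reduced in the same way. In the higher-scoring 50% of each list, 24 of 60 regions lacked an NS DMSO peak (40%, against 52.4% of all) and 7 were in NS DMSO alone (11.7%, against 6.61%). The families differed little in the share without an NS DMSO peak, 25 of 52 for the E protein genes (48.1%) and 30 of 59 for the ID genes (50.8%). All 4 lists shared 10 of the E protein regions (19.2%) and 19 of the ID regions (32.2%). Peaks in every list but NS DMSO were found in 6 of the 59 ID regions (10.2%) and 1 of the 52 E protein regions (1.92%). Of those 6, 4 lay at *ID1* and 2 at *ID2*, and *ID3* had 0 of 24, so this was not a trait of all ID genes.

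The shares of single genes, each over fewer regions, spread more widely than those of the families. *ID2* lacked an NS DMSO peak in 10 of its 12 regions (83.3%), *TCF12* in 17 of 31 (54.8%), *ID1* in 12 of 23 (52.2%), *TCF3* in 6 of 15 (40%), *TCF4* in 2 of 6 (33.3%) and *ID3* in 8 of 24 (33.3%). Among 10153 protein-coding genes with at least 10 regions in the same kind of window, the median share was 46.2%, with quartiles of 35.3% and 57.9%. *TCF3*, *TCF12* and *ID1* lay between these quartiles, and *TCF4* had too few regions to be ranked. Only 1.31% of these genes had a share as high as that of *ID2*, or higher, whereas 79.8% were at or above the share of *ID3*. The number of regions also placed the genes far apart. As many regions as at *TCF12*, or more, were found at 0.685% of 20136 coding genes, against 73.9% for *TCF4*, and a long gene body widened the window of both. The SW rottlerin list was the longest and was alone in 19 of the 42 regions with a peak in 1 list (45.2%, against 47% of such regions overall), 9 of them at *TCF12* and 4 at *ID2*. Without that list, 36 of 92 regions lacked an NS DMSO peak (39.1%, against 43.3% of all regions). *ID2* then had 6 of 8 (75%), *TCF12* 8 of 22 (36.4%) and *TCF4* 0 of 4. With the same number of peaks taken from each list, by q-value, the count was 31 of 87 (35.6%, against 41.5%), and *ID2* again had 6 of 8. The share at *ID2* was thus high under each of these settings, and that of *TCF12* lay below the share of all regions without the longest list.

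**Figure D1:**
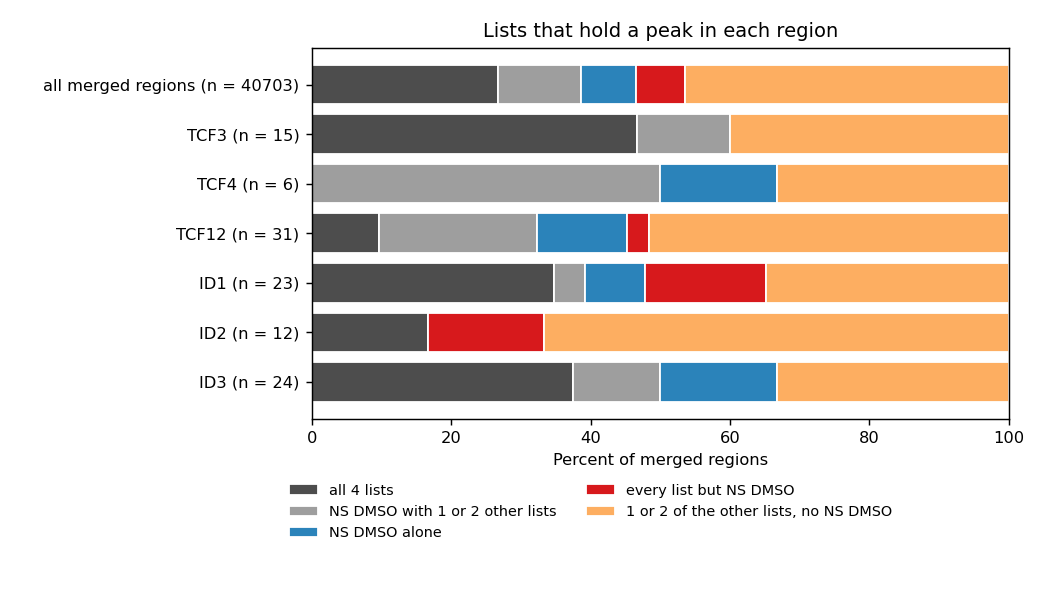
Percent of the merged regions of each gene, and of all 40703 merged regions, by the lists that hold a peak in them (horizontal axis, percent; n, number of regions). *ID2* has no NS DMSO peak in 10 of 12 regions, *TCF3* has peaks of all 4 lists in 7 of 15, and *TCF4* in 0 of 6.

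**Figure D2:**
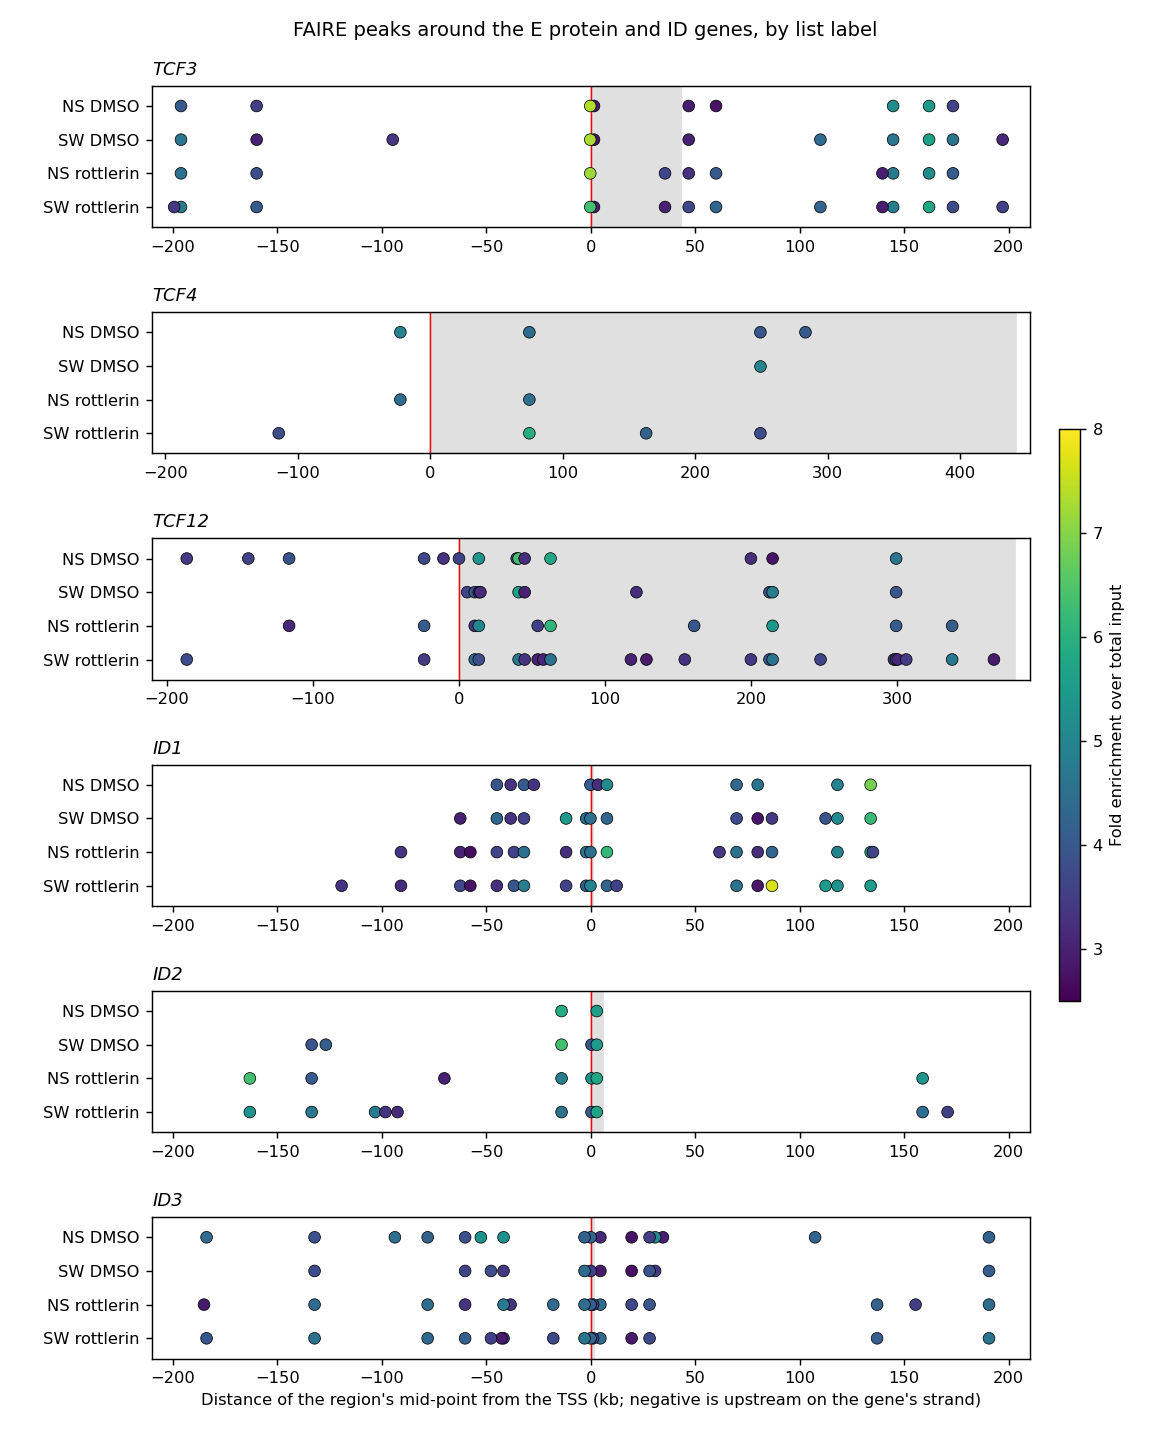
Each point is a peak of 1 list, placed by the distance of its merged region from the TSS (kb, negative upstream on the gene's strand) and coloured by fold enrichment over total input. The red line is the TSS and the grey band the gene body. The NS DMSO row has 2 points at *ID2* and 16 at *ID3*.

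At the TSS itself, 3 of the 6 genes had a region with peaks in all 4 lists, a state found at 30.5% of coding genes. *TCF3* encodes E12 and E47, made by splicing, and its region reached from the TSS into the upstream sequence (chr19:1652569-1653246). Its fold enrichment was 7.37 in NS DMSO, 7.31 in SW DMSO, 7.20 in NS rottlerin and 6.35 in SW rottlerin. These were the highest values at any region of *TCF3*, and the lowest was in SW rottlerin. *ID1* had 4.14, 4.49, 4.46 and 4.96 in the same order, in a region 1803 bp wide (chr20:30191999-30193801), so that NS DMSO was the lowest. *ID3* had 4.26, 3.55, 4.13 and 4.22 (chr1:23885959-23886225), with SW DMSO the lowest. A second *ID3* region, in an intron 1.06 kb downstream, had peaks in NS rottlerin (3.40) and SW rottlerin (3.68) only.

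The other 3 genes differed in their TSS region. At *ID2* (chr2:8818899-8819676) the enrichment was 3.92 in SW DMSO, 5.30 in NS rottlerin and 3.98 in SW rottlerin, with no peak in NS DMSO, a state of 2.36% of coding genes. The start of another *ID2* coding transcript lay 372 bp from the mid-point of a region 2.84 kb downstream, which had peaks in all 4 lists (5.54 in NS DMSO). At *TCF12*, which encodes HEB, the most prominent partner of E2A in thymocytes, a 214 bp region (chr15:57210766-57210979) had a peak in NS DMSO alone (3.56), a state of 0.546% of coding genes. *TCF4*, which encodes E2-2 and is best known for its role in plasmacytoid dendritic cells, had no region within 1 kb of its TSS, as was the case at 55.0% of coding genes. *TCF4* has many start sites, and a region 74.9 kb inside the gene (chr18:53256986-53257295) had its mid-point 71 bp from the start of another coding transcript. That region had peaks in NS DMSO (4.40), NS rottlerin (4.53) and SW rottlerin (5.92), the last being the highest value at *TCF4*.

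**Figure D3:**
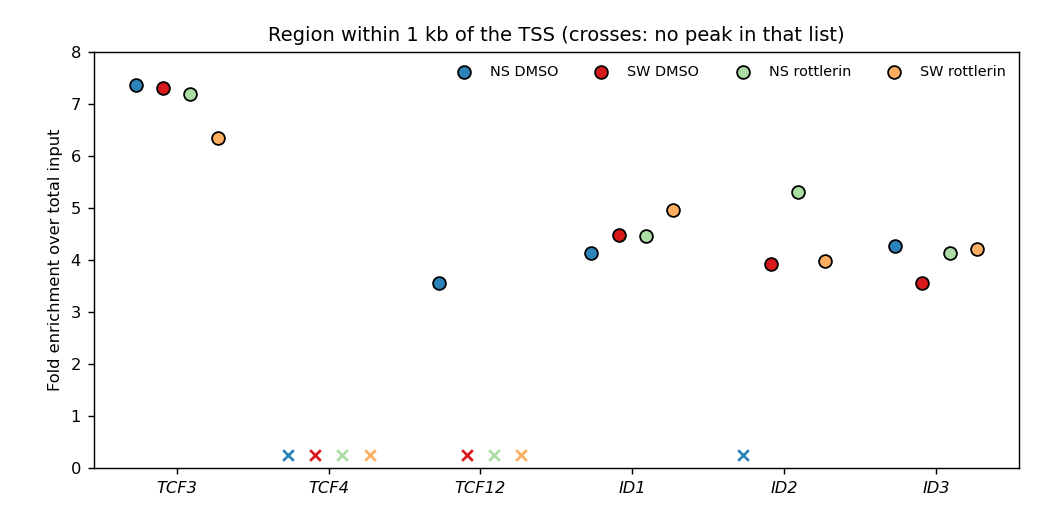
Fold enrichment over total input (vertical axis) of the region at the TSS, by list, for each gene; a cross means that the list holds no peak within 1 kb, and *ID3* shows the higher of its values in each list. *TCF3* lies above 6 in every list, *TCF12* has a value in NS DMSO alone, and *ID2* in every list but NS DMSO.

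The *TCF3* locus (ENSG00000071564.19_19, chr19:1609290-1652614, minus strand) is crowded with other genes. Of its 15 regions, 8 lay within 1 kb of the TSS of another coding gene, and 3 lay in the *TCF3* gene body. Regions in all 4 lists numbered 7, and 6 of these were at other genes' start sites, such as 1 at *PCSK4* and *REEP6* with 5.46, 5.62, 5.15 and 5.75. A region 1.51 kb downstream of the *TCF3* TSS, 247 bp from the start of another *TCF3* transcript, had low values of 2.94 in NS DMSO, 2.83 in SW DMSO and 2.98 in SW rottlerin. *TCF3* had no region in NS DMSO alone and none in every list but NS DMSO. Of the 6 regions without an NS DMSO peak, 1 lay in the gene, in an intron 35.5 kb from the TSS, with 3.66 in NS rottlerin and 3.00 in SW rottlerin.

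At *TCF4* (ENSG00000196628.20_19, chr18:52889416-53332018, minus strand) 6 regions were found over a window of 643 kb, 4 of them in the gene. No region had peaks in all 4 lists, and the SW DMSO list had 1 peak there, 249 kb from the TSS (4.97, against 3.95 in NS DMSO and 3.75 in SW rottlerin). A region 283 kb from the TSS had a peak in NS DMSO alone (4.04). Another 22.5 kb upstream had 4.92 in NS DMSO and 4.45 in NS rottlerin.

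At *TCF12* (ENSG00000140262.18_9, chr15:57210821-57591479, plus strand) 26 of 31 regions lay in the gene body. The 5 regions before the TSS all had an NS DMSO peak, with enrichments of 3.30 to 3.90 in that list. All 5 lay in introns of a coding gene that has no symbol, and the farthest lay in *ZNF280D* as well. Within the gene, 17 of 26 regions had no NS DMSO peak. NS DMSO was alone 144 kb and 10.6 kb before the TSS (3.59 and 3.30), at the TSS (3.56) and 39.6 kb after it (3.53). The region in every list but NS DMSO, 10.9 kb after the TSS, had 4.00 in SW DMSO, 3.33 in NS rottlerin and 4.40 in SW rottlerin, and it holds the TGANTCA match printed above. A region 13.6 kb after the TSS had its highest value in NS DMSO (5.39, against 3.22, 5.07 and 3.82). The highest enrichment of the gene was at 40.9 kb, in a region with both CACCTG and CAGCTG, where NS DMSO had 6.35, SW DMSO 5.63 and SW rottlerin 4.65. Another high region at 62.7 kb had 5.80 in NS DMSO, 6.10 in NS rottlerin and 4.53 in SW rottlerin. All 4 lists shared 3 regions, at 13.6, 215 and 299 kb.

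*ID1* (ENSG00000125968.9_10, chr20:30193086-30194318, plus strand) had 4 of the 7 regions in every list but NS DMSO. These were 17.4% of its 23 regions, against 7.08% of all merged regions. They lay 62.5, 11.8 and 2.22 kb before the TSS and 86.7 kb after it. The region 62.5 kb upstream, in an intron of *HM13*, had 3.00, 3.04 and 3.68 in SW DMSO, NS rottlerin and SW rottlerin. The region 11.8 kb upstream had 5.46, 3.27 and 3.59, and that 2.22 kb upstream, with 1 CACCTG, had 4.41, 4.62 and 4.09. The region 86.7 kb downstream (chr20:30279483-30280090) lay in an intron of *BCL2L1*, which encodes the survival protein BCL-XL, and it had 3.41 in SW DMSO, 4.32 in NS rottlerin and 7.69 in SW rottlerin. That was the highest value in any of the 111 regions, and it holds a CAGCTG. NS DMSO was alone 27.3 kb before (3.34) and 3.42 kb after the TSS (3.21). A region 7.71 kb after the TSS, with 1 CACCTG and 1 CAGCTG, was shared by all 4 lists and had 5.12, 4.32, 6.16 and 4.28.

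The window of *ID1* also held the start sites of other genes, and 5 of its 23 regions lay within 1 kb of one. The regions at *BCL2L1* (4.89, 5.13, 4.94 and 5.29) and just before *TPX2*, a mitotic spindle factor (6.84, 6.19, 5.81 and 5.51), had peaks in all 4 lists. The other 3 had no NS DMSO peak. A second region at *TPX2* had a peak in NS rottlerin (3.62), and those at *HM13* (3.34 and 3.18) and *MCTS2* (2.69 and 2.78) had peaks in NS rottlerin and SW rottlerin. *BCL2L1* and *HM13* each contained 6 of the regions, with no NS DMSO peak in 3 of each.

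*ID2* (ENSG00000115738.10_7, chr2:8818975-8824591, plus strand), which natural killer and innate lymphoid cells require and which effector T cells express highly, had 2 regions with an NS DMSO peak. Both were in all 4 lists. The region 14 kb before the TSS had 5.89 in NS DMSO, 6.36 in SW DMSO, 4.83 in NS rottlerin and 4.56 in SW rottlerin. The region 2.84 kb after it had 5.54, 5.49, 5.77 and 5.72, a range far narrower than that of the first. The other 10 regions had no peak in NS DMSO. Of these, 6 lay 92.6 to 163 kb upstream in the noncoding gene *LINC01814*, a grouping made after the values were seen. The region at the study's primers had 6.36 in NS rottlerin and 5.36 in SW rottlerin and no peak in SW DMSO, and both primers matched inside it. The region 134 kb upstream had 3.92 in SW DMSO, 4.05 in NS rottlerin and 4.68 in SW rottlerin. The other 4 regions in *LINC01814* each had a peak in a single list, 1 in SW DMSO (4.12) and 3 in SW rottlerin (3.15 to 4.79). Downstream, a region at the TSS of *KIDINS220*, which encodes a neurotrophin receptor scaffold, 159 kb away, had 5.34 in NS rottlerin and 4.46 in SW rottlerin.

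*ID3* (ENSG00000117318.9_8, chr1:23884417-23885992, minus strand), whose product restrains E protein activity in thymocytes and marks long-lived memory T cells, had the most NS DMSO peaks, in 16 of 24 regions. The NS rottlerin and SW rottlerin lists also had 16 each, and SW DMSO had 11. NS DMSO thus had a peak in 66.7% of the *ID3* regions (46.5% of all merged regions) and SW DMSO in 45.8% (49.3%). NS rottlerin had one in 66.7% (58.4%) and SW rottlerin in 66.7% (74.5%). NS DMSO was alone in 4 regions, 107 and 34.5 kb after the TSS (4.25 and 2.95) and 52.7 and 93.8 kb before it (5.31 and 4.49). The region 52.7 kb upstream had the highest value at *ID3* and carries 2 CACCTG and 1 CAGCTG, as printed above. No region had a peak in every list but NS DMSO. All 4 lists shared 9 regions, among them 1 that lay 3.03 kb before the TSS, with 4.19, 4.41, 4.44 and 4.61 and 2 CAGCTG, and 1 that lay 4.55 kb after it, with 3.12, 2.89, 4.45 and 4.41. The noncoding gene *MDS2* contained 7 of the upstream regions, and NS DMSO had a peak in 4 of them.

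Enrichment could be compared between lists where both held a peak. Of the regions of the 6 genes, 35 had peaks in both NS DMSO and SW DMSO, with a median ratio to NS DMSO of 0.96 (0.98 over all 12550 such regions). For NS rottlerin there were 36, with a median ratio of 1.05 (1.04 over 13702), and for SW rottlerin 41, with 1.04 (1.06 over 14037). A difference of at least 1.5-fold was counted. SW DMSO was higher by that much in 1 region and lower in 3, where 1.67% and 2.18% of all regions were. NS rottlerin was higher in 1 and lower in 0 (3.19% and 1.38% of all). SW rottlerin was higher in 2 and lower in 2 (4.50% and 1.54% of all). Few regions of the 6 genes with peaks in both lists therefore differed by 1.5-fold, and the count farthest from the background was the 3 of 35 regions lower in SW DMSO.

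The regions past 1.5-fold were 5. In an intron of *TCF12*, 215 kb from its TSS (chr15:57425236-57425880), the enrichment was 2.77 in NS DMSO, 4.80 in SW DMSO, 5.39 in NS rottlerin and 4.57 in SW rottlerin. NS DMSO was there the lowest by ratios of 1.73, 1.95 and 1.65. The *TCF12* region at 13.6 kb, given above, was 1.67-fold lower in SW DMSO than in NS DMSO. A region 79.9 kb after the *ID1* TSS, in an intron of *BCL2L1*, had 4.62, 2.79, 3.24 and 2.83, and so was 1.66-fold lower in SW DMSO and 1.63-fold lower in SW rottlerin. A region at the TSS of *MBD3*, a subunit of the NuRD complex, in the *TCF3* window had 2.77 in NS DMSO, 4.04 in NS rottlerin and 4.32 in SW rottlerin, the last 1.56-fold higher. A region 41.8 kb before *ID3*, in *MDS2*, had 5.27, 3.41, 4.75 and 3.49, and was 1.55-fold and 1.51-fold lower in SW DMSO and SW rottlerin.

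**Figure D4:**
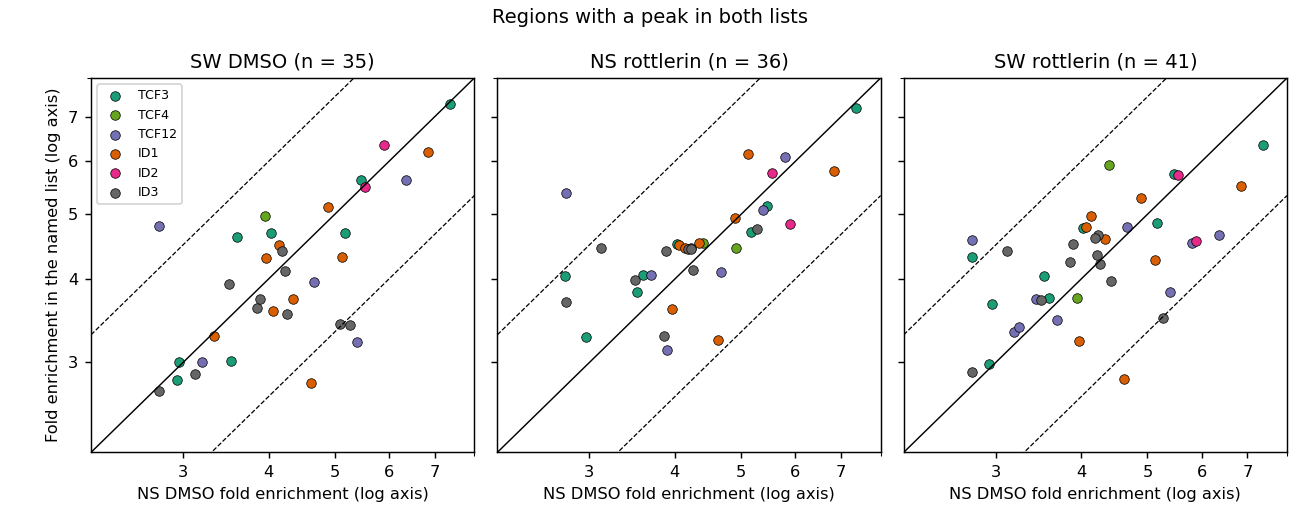
Fold enrichment of each region with a peak both in NS DMSO (horizontal axis) and in the named list (vertical axis), both log axes, coloured by gene. The solid line marks equal values and the dashed lines 1.5-fold. Most points lie between the dashed lines, and 1 *TCF12* region lies above them in all 3 panels.

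The shares of regions with an E-box were a little above those of all merged regions. In the 300 bp about the mid-point, which reaches beyond the narrower regions, CACCTG was found in 25.2% of the 111 regions (21.4% of all merged regions), CAGCTG in 20.7% (17.1%) and CATCTG in 25.2% (21.4%). Any of the 3 was found in 62 regions (55.9%), against 48% of all. The median GC content of these regions was 50.3%, against 46.3%, and its part in the E-box shares was not tested. *ID3* had an E-box in 17 of 24 regions, *TCF3* in 11 of 15, *ID2* in 7 of 12, *ID1* in 12 of 23, *TCF12* in 13 of 31 and *TCF4* in 2 of 6. The share with CACCTG was 17 of 56 in regions with an NS DMSO peak (30.4%) and 11 of 55 in those without (20%), where all regions had 25.3% and 18%. In the regions in NS DMSO alone it was 3 of 11 (27.3%, against 39.8% of such regions overall).

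AP1 is the site of the FOS and JUN factors that PMA and ionomycin are known to activate. The pattern TGANTCA, which is wider than the AP1 consensus, was found in 13 of the 111 regions (11.7%), against 17.9% of all. Matches to the consensus forms were not counted apart from the others. Of these 13, 11 lacked an NS DMSO peak. The shares were 20% without and 3.57% with an NS DMSO peak, against 25.8% and 8.83% over all regions, so the difference seen over all regions was also present around these genes. *TCF12* had 8 of the 13 regions, *ID2* had 2, *TCF3*, *ID1* and *ID3* had 1 each and *TCF4* had 0. In the regions in every list but NS DMSO it was found in 3 of 7 (42.9%, against 36.7% of such regions overall), those 10.9 kb into *TCF12*, 11.8 kb before *ID1* and 134 kb before *ID2*. It was found in 0 of the 11 regions in NS DMSO alone (6.31% of such regions overall). A match is a description of the sequence and does not show that a factor was bound.

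Genes that act with the E proteins were examined in the same windows, from a list of 19. A TSS region in all 4 lists was found at 4, namely *HES1*, a bHLH repressor downstream of Notch, *ZEB1*, a zinc finger repressor of E-boxes, and the E protein targets *CD3E* and *NOTCH1*. At 10 genes there was no region within 1 kb of the TSS, and 5 had peaks in some of the lists. Of all coding genes, 30.5% had a TSS region in all 4 lists and 55.0% had none, so these counts do not set the 19 genes apart. Of the bHLH relatives, *TAL1*, the leukaemia oncogene that pairs with E proteins, had a TSS peak in SW DMSO (2.85) and SW rottlerin (2.90), and *ID4*, *LYL1*, *TAL2* and *TFAP4* had none. *HES1* had 3.36, 4.96, 4.77 and 5.33, lowest in NS DMSO, while *ZEB1* had 5.00, 4.24, 3.88 and 3.51, highest in NS DMSO. Among the cofactors, *LDB1* had a peak in SW rottlerin (2.82), and *LMO2* and *CBFA2T3* had none. *ZEB2* had peaks in NS rottlerin (3.47) and SW rottlerin (3.36), and 10 of its 12 regions lacked an NS DMSO peak, the same numbers as *ID2*. *SNAI3* had a peak in SW rottlerin (3.48).

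Of the E protein targets, *CD3E* had 4.31, 3.55, 3.75 and 3.81 and *NOTCH1* had 3.22, 3.33, 4.29 and 4.03. *RAG2*, a subunit of the recombinase that assembles antigen receptor genes, had 4.12 in NS DMSO and 3.85 in SW rottlerin. *RAG1*, which shares its 12 regions with *RAG2*, had no TSS region, and neither did *PTCRA*, *CD4* and *CDKN1A*. The 19 genes had 2 to 28 regions each, with a median of 12.

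The labelled cell type was checked at marker genes. All 8 T cell markers (*CD3D*, *CD3E*, *CD3G*, *CD247*, *LCK*, *CD28*, *CD5* and *TRAT1*) had a region within 1 kb of their TSS in at least 1 list, 3 of them in all 4. Some had a peak in a single list, *CD3G* in NS DMSO (4.87) and *CD5* in SW rottlerin (3.48). Over all coding genes, 30.5% had a TSS region in all 4 lists and 55.0% had none in any list. None of the B cell markers *MS4A1*, *CD79A* and *PAX5* and none of 4 myeloid markers (*CD14*, *LYZ*, *CSF1R* and *SPI1*) had one in any list.

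The window of 200 kb is a choice, and regions lay on both sides of its edge. The region just inside it at *TCF3* was 199 kb upstream, in SW rottlerin alone (3.42), and the region just outside was 203 kb upstream, in NS DMSO, NS rottlerin and SW rottlerin (highest 3.88). At *ID2* the outermost regions inside were 163 kb upstream and 171 kb downstream (highest 6.36 and 3.57), and those just outside were 223 kb upstream and 208 kb downstream (3.86 and 5.75), the second with an NS DMSO peak. At *ID3* they were 191 kb downstream inside (4.66) and 205 kb outside (5.82).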

How the data were processed

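FAIRE-seq reads were mapped to hg19 by the authors with Bowtie2, duplicates were removed with Picard, and peaks were called with MACS2 in broad mode against total input, by the study's methods in the DMSO samples. For each peak the deposited lists hold a score, a ratio (fold enrichment over total input), −log10 p and −log10 q. All peaks were kept, including 163 to 427 a list with q above 0.05, the study's threshold.

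Peaks on the autosomes, X and Y that overlapped by 1 bp or touched were merged across the lists, and a region took each list's highest fold enrichment. A further 28 regions elsewhere were left out. Genes came from GENCODE release 44 on GRCh37, with the TSS as the 5′ end of the gene record, and distances run from the TSS to a region's mid-point. Motifs were matched exactly on both strands.

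Regions named are those within 1 kb of a TSS, the highest of each gene, those in every list but NS DMSO or in NS DMSO alone, the 5 largest differences and that at the study's primers. Other regions named in passing were chosen after their values were seen. The genes and lists were chosen with earlier results of these data known. A further B cell marker is not reported here. The steps were tested on simulated data. Python 3.11.15, pandas 2.3.3, numpy 2.4.6, pysam 0.24.0 and matplotlib 3.10.9 were used.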

Additional observations from a re-analysis of the deposited data

How the results depend on the processing

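Of 75 alternative values, 49 stayed within 1.5 times the count, or within the interval of the share, and 26 moved. Counts are given as all regions, those without an NS DMSO peak, those in NS DMSO alone and those in all 4 lists, which were 111, 55, 11 and 29. A window of 50 kb gave 64, 29, 7 and 17, the gene body with 10 kb before the TSS gave 40, 22, 3 and 8, and the higher-scoring 50% of each list gave 60, 24, 7 and 17. These settings hold fewer regions by construction. Regions without an NS DMSO peak numbered 31 with equal numbers of peaks and 36 without the SW rottlerin list, the latter chosen after seeing the data, as was leaving out regions at other genes' TSS, which left 18 in all 4 lists. At a ratio of 5 to 4 in place of 3 to 2, SW DMSO was higher in 3 regions, NS rottlerin higher in 4 and lower in 1, and SW rottlerin higher in 4 and lower in 6. At 7 to 4, SW DMSO was higher in 0 and lower in 0, and SW rottlerin higher in 0 and lower in 0. With values divided by each list's median, SW rottlerin was higher in 1. CATCTG was found in 34.2% of regions in the central 500 bp, a wider window. The share of all merged regions in that window is not given here, so this value cannot be set against a background. No paired analysis was possible because each label has 1 library. Read depth is unknown, so an absent peak may be a region below the limit of that library.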

Other observations

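Several matches to TGANTCA lay in neighbouring regions of the *TCF12* gene, which was noticed in the data and not tested. In the 300 bp about the mid-point, the 6 regions between 248 and 338 kb from the TSS all had a match, 8 in total. Counted inside the regions alone, these numbers were the same. Of the other 25 *TCF12* regions, 2 had a match in the 300 bp. The limits of the run were set where the matches ended, since the next regions, at 215 and 366 kb, had no match. That all 6 had a match therefore followed from that choice and is no measure of grouping. Of the 6 regions, 4 had a peak in SW rottlerin alone, 1 had a peak in NS DMSO, and that 1, at 299 kb, was shared by all 4 lists with 4.67, 3.95, 4.10 and 4.78. The region at 300 kb lay 468 bp from the start of a shorter *TCF12* transcript.

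In the *TCF4* window the lists held 4 peaks in NS DMSO, 1 in SW DMSO, 2 in NS rottlerin and 4 in SW rottlerin. These were 66.7%, 16.7%, 33.3% and 66.7% of its 6 regions, and the shares over all merged regions are given below. At *TCF12* the SW rottlerin list had 22 peaks, against 14, 10 and 10 in NS DMSO, SW DMSO and NS rottlerin. SW rottlerin thus had a peak in 71% of the *TCF12* regions (74.5% of all merged regions), NS DMSO in 45.2% (46.5%), SW DMSO in 32.3% (49.3%) and NS rottlerin in 32.3% (58.4%).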
